A study of Arabidopsis thaliana with 11 samples.

Results

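Seedlings of *nsun5-2* and *nop2a-2* carry insertions in genes of the NSUN5 and NOP2 families of RNA methyltransferases, and their transfer RNA (tRNA) methylation was set against that of wild type seedlings. RNA bisulfite sequencing (RBS-seq) was applied to gel-purified tRNA of *Arabidopsis thaliana*, and the deposited value is the percent of reads that still show C at a cytosine, which is read as 5-methylcytosine (m5C). Of 11 libraries in the series, 5 are described here: 3 of wild type, 1 of *nsun5-2* and 1 of *nop2a-2*. The members were the tRNA sites with a number in a mutant and in wild type, which gave 27 of 39 sites for *nsun5-2* and 27 of 39 for *nop2a-2*, with 25 sites measured in both and 29 in at least 1 of them.

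These libraries came from Columbia ecotype seedlings 10 days after germination, and the labels name no treatment. Other libraries of the series are set beside them below. Seedlings of *trm4a*, *trdmt1*, *trm4b-1* and the double mutant *trdmt1 trm4b* belong to the same experiment, with 1 library each. Floral buds of wild type and of *trm4b-2*, 1 library each, are another tissue from a separate experiment, and their labels give no age. *nsun5-2* is a T-DNA allele of NSUN5 (AT5G26180). The study describes this allele as possibly still making a little functional protein. It also reports that methylation at the ribosomal RNA site of the enzyme was reduced but not abolished in this allele. *nop2a-2*, which the deposited columns call *oli2-2*, is a T-DNA allele of NOP2A (AT5G55920), and the related genes NOP2B and NOP2C are intact in it. The study found methylation at wild type levels in *nop2a* at the ribosomal RNA site predicted for NOP2 enzymes. It proposes that NOP2A does not methylate that site or is redundant with its paralogues. The tables used here hold neither mRNA nor ribosomal RNA values, so the 2 mutant labels could not be checked on the genes or on their ribosomal RNA sites. The wild type value of each site came from the authors as a mean of 3 libraries with no spread, and either mutant had 1 library. No difference below could therefore be set against replicate error, no test was made, and every difference is a description of single libraries. The tables hold no read counts per site either, so the depth of each level was unknown.

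Members of the NOP2/Sun family transfer a methyl group to cytosine in RNA. In yeast, the counterparts of NSUN5 (Rcm1) and of NOP2A (Nop2) modify the RNA of the large ribosomal subunit, whereas tRNA is served by other enzymes. In *Arabidopsis*, TRM4B, the counterpart of yeast Trm4, acts at the junction of the variable loop and the T stem (C48, C49 and C50). TRDMT1, also known as DNMT2, acts in the anticodon loop (C38). The comparison thus asks whether tRNA cytosines differ from wild type in these mutant alleles of ribosomal RNA type enzymes.

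The consensus sequences below belong to the 3 tRNAs with a site 20 percentage points or more from wild type in either mutant. Asp(GTC), which carries the most sites, and Gly(GCC), added after the values were seen, are shown for comparison. They run 5′ to 3′ as tRNA gene sequences from the authors' TAIR10 list, with the methylated cytosines in capitals (C38, C48 and C49 in Gly(CCC); C49 in Arg(ACG) and Val(CAC); C38, C48, C49, C50 and C72 in Asp(GTC); C38, C48, C49 and C50 in Gly(GCC)).
Gly(CCC): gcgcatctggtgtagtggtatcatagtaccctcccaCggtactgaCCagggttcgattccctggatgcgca
Arg(ACG): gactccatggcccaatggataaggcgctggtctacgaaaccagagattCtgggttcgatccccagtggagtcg
Val(CAC): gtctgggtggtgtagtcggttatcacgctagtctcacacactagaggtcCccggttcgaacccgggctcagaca
Asp(GTC): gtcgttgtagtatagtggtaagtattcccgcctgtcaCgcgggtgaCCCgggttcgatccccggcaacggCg
Gly(GCC): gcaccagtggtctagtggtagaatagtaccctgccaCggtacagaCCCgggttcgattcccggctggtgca
Each consensus stands for several loci, and 1 level is given for all of them together. Gly(CCC), of 71 bases, stands for 5 tRNA genes: AT2G47740 (chr2:19559855-19559925), AT3G62735 (chr3:23210707-23210777), AT4G10815 (chr4:6646430-6646500), AT4G24025 (chr4:12486202-12486272) and AT5G53487 (chr5:21723114-21723184). Their strand is not given in the list. Arg(ACG) stands for 9 tRNA genes, such as AT4G31265 (chr4:15183084-15183156), and Val(CAC) for 8, such as AT2G22110 (chr2:9393670-9393743). Asp(GTC) stands for 25 loci and Gly(GCC) for 22. The Gly(CCC) and Gly(GCC) sequences differ at 15 of 71 bases.

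Neither mutant lost methylation at any of its 27 measured tRNA sites. Among sites at 20% or more in wild type, lost means a mutant level no higher than 5%, reduced means a level above this that was 20 points or more below wild type, and the rest were retained. In *nsun5-2*, 0 of 27 sites were lost and 2 were reduced, which is 7.41% of the sites compared, and both lie in Gly(CCC). Another reference in place of wild type was the median of the other mutants, meaning *trm4a*, *trdmt1* outside C38, and *nop2a-2*. Against it these calls ended, at -15.5 points for C38 and -16 points for C48, and Arg(ACG) C49 and Thr(TGT) C49 were called instead. At C38 this median held only *trm4a* and *nop2a-2*, the latter itself below wild type there. Against the *trm4a* library alone, Gly(CCC) C38, Arg(ACG) C49 and Thr(TGT) C49 were called. Against wild type buds, both Gly(CCC) sites and Arg(ACG) C49 were. In *nop2a-2*, 0 of 27 sites were lost or reduced (0%). The study itself reports no reduced tRNA site in either mutant, so the 2 reduced calls in *nsun5-2* rest on the rule used here. In each mutant 1 of 27 sites (3.7%) was at least 20 points above wild type. For *trdmt1*, a mutant of the C38 enzyme, the same rule called 4 of 30 sites (13.3%). Of these, 3 were lost, all at C38, and 1 was reduced, Gln(CTG) C49, at -27 points. For *trm4b-1*, a mutant of TRM4B, the rule called 25 of 32 (78.1%), and for *trm4a*, a mutant of the TRM4B paralogue, 1 of 30 (3.33%).

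**Figure D1:**
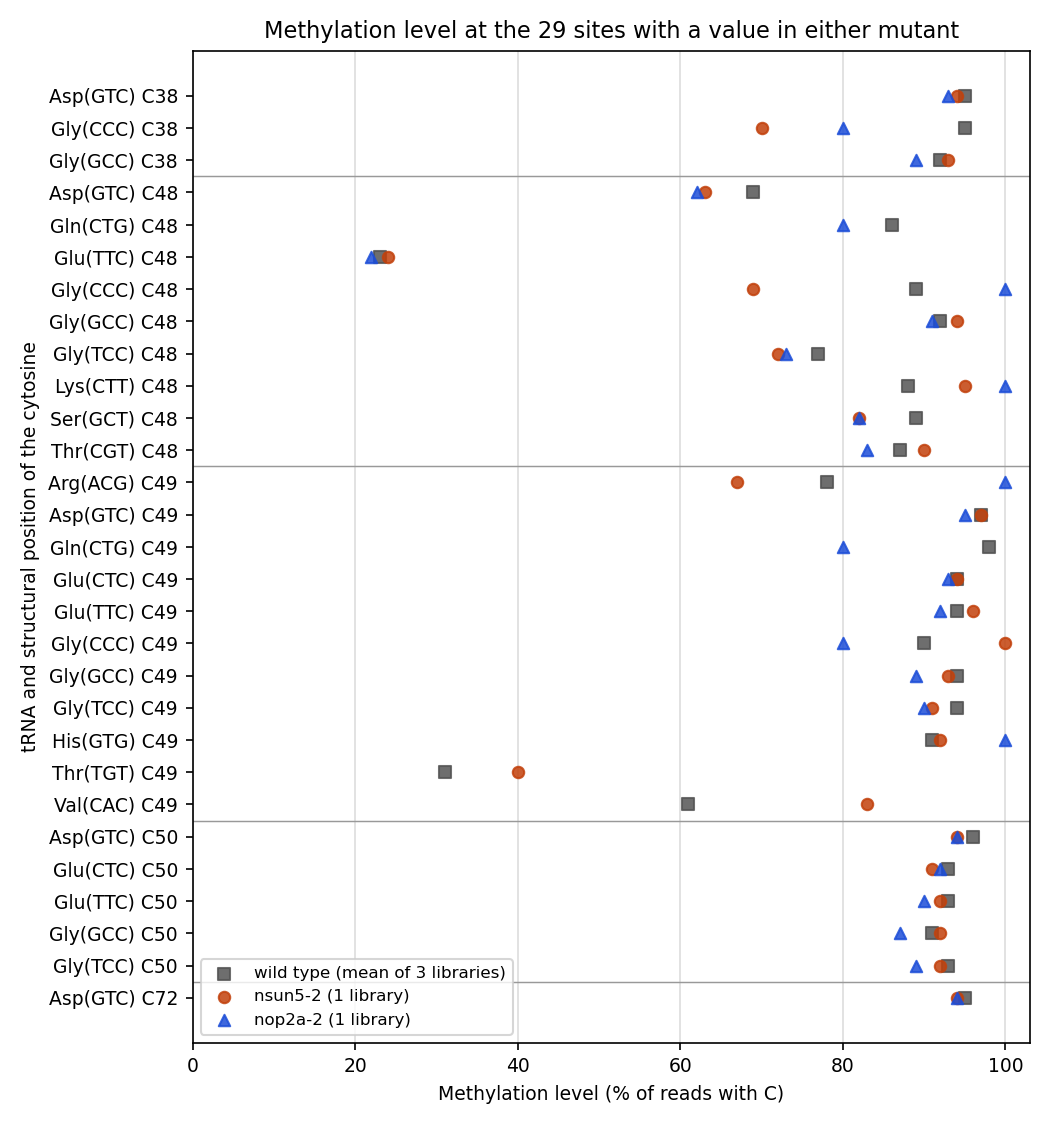
Methylation level in percent (x axis, 0 to 100) at the 29 sites with a value in either mutant, ordered by structural position (y axis). Grey squares are the wild type mean of 3 libraries, red circles *nsun5-2* and blue triangles *nop2a-2*, 1 library each. Most symbols of a site overlap. Sites whose symbols stand apart include the 3 of Gly(CCC), Arg(ACG) C49, Val(CAC) C49 and Gln(CTG) C49. At Gly(CCC) C38, *nsun5-2* is at 70% and *nop2a-2* at 80% against 95% in wild type.

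At most sites the mutants stayed close to wild type. The median absolute difference was 2 points in *nsun5-2* and 4 points in *nop2a-2*. Differences ran from -25 to 22 points in *nsun5-2*, where 18 of 27 sites lay within 5 points of wild type, and from -18 to 22 points in *nop2a-2*, where 17 of 27 did. A difference of 10 points or more was found at 5 sites in *nsun5-2* (18.5%) and at 6 sites in *nop2a-2* (22.2%). Of the 2 libraries, *nop2a-2* was the more one-sided. It was below wild type at 23 sites (85.2%) and above at 4, with a median difference of -3 points. *nsun5-2* was below at 14 sites (51.9%), above at 11 and equal at 2, with a median of -1 point.

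Gly(CCC), a glycine tRNA with sites in the anticodon loop and at the T stem junction, held the lowest difference of *nsun5-2* and was 10 points or more from wild type at each of its 3 sites in both mutants. C38, the site of TRDMT1, was at 95% in wild type, 70% in *nsun5-2* and 80% in *nop2a-2*. C48, the last base of the variable loop, was at 89% in wild type, 69% in *nsun5-2* and 100% in *nop2a-2*. C49, the first base of the T stem, was at 90% in wild type, 100% in *nsun5-2* and 80% in *nop2a-2*. Thus at C38 both mutants were below wild type, by -25 and -15 points, while at the neighbouring C48 and C49 they lay on opposite sides of it. At C48 the differences were -20 points in *nsun5-2*, exactly at the limit for a reduced site, and 11 points in *nop2a-2*. At C49 they were 10 points in *nsun5-2* and -10 points in *nop2a-2*.

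In the other libraries these cytosines varied little as long as their known enzyme was present. C38 of Gly(CCC) was at 91% to 95% over 5 columns with TRDMT1 intact, and both mutants were below that range. C48 was at 85% to 92% over 4 columns with TRM4B intact (wild type seedlings, *trm4a*, *trdmt1* and wild type buds), a range that *nsun5-2* missed by 16 points on the low side and *nop2a-2* by 8 points on the high side. C49 was at 90% to 96% over the same columns, with *nsun5-2* 4 points above and *nop2a-2* 10 points below. The shifts were smaller than those of the enzymes that act here. C38 was at 0% in *trdmt1*, and C48 was at 4% and C49 at 48% in *trm4b-1*. Lying outside a range of this kind was common. For all 25 sites measured in both mutants, the range spanned wild type seedlings, *trm4a*, wild type buds and, outside C38, *trdmt1*. *nsun5-2* was below it at 5 sites, above at 5 and inside at 15. *nop2a-2* was below it at 11, above at 4 and inside at 10. Sites 5 points or more outside numbered 4 in *nsun5-2* and 7 in *nop2a-2*.

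The related glycine tRNA Gly(GCC) showed no such shifts. Its C38 was at 92% in wild type, 93% in *nsun5-2* and 89% in *nop2a-2*, and the difference from wild type over its 4 sites was between -1 and 2 points in *nsun5-2* and between -5 and -1 points in *nop2a-2*. The 3 sites of Gly(TCC) differed by -5 to -1 points in *nsun5-2* and by -4 points each in *nop2a-2*. The larger differences among glycine tRNAs were thus seen in the one with 5 loci, against 22 for Gly(GCC) and 12 for Gly(TCC). Outside glycine, Thr(CGT), also with 5 loci, differed at its C48 by 3 points in *nsun5-2* and -4 points in *nop2a-2*. Whether locus number or read depth plays a part was not tested.

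**Figure D2:**
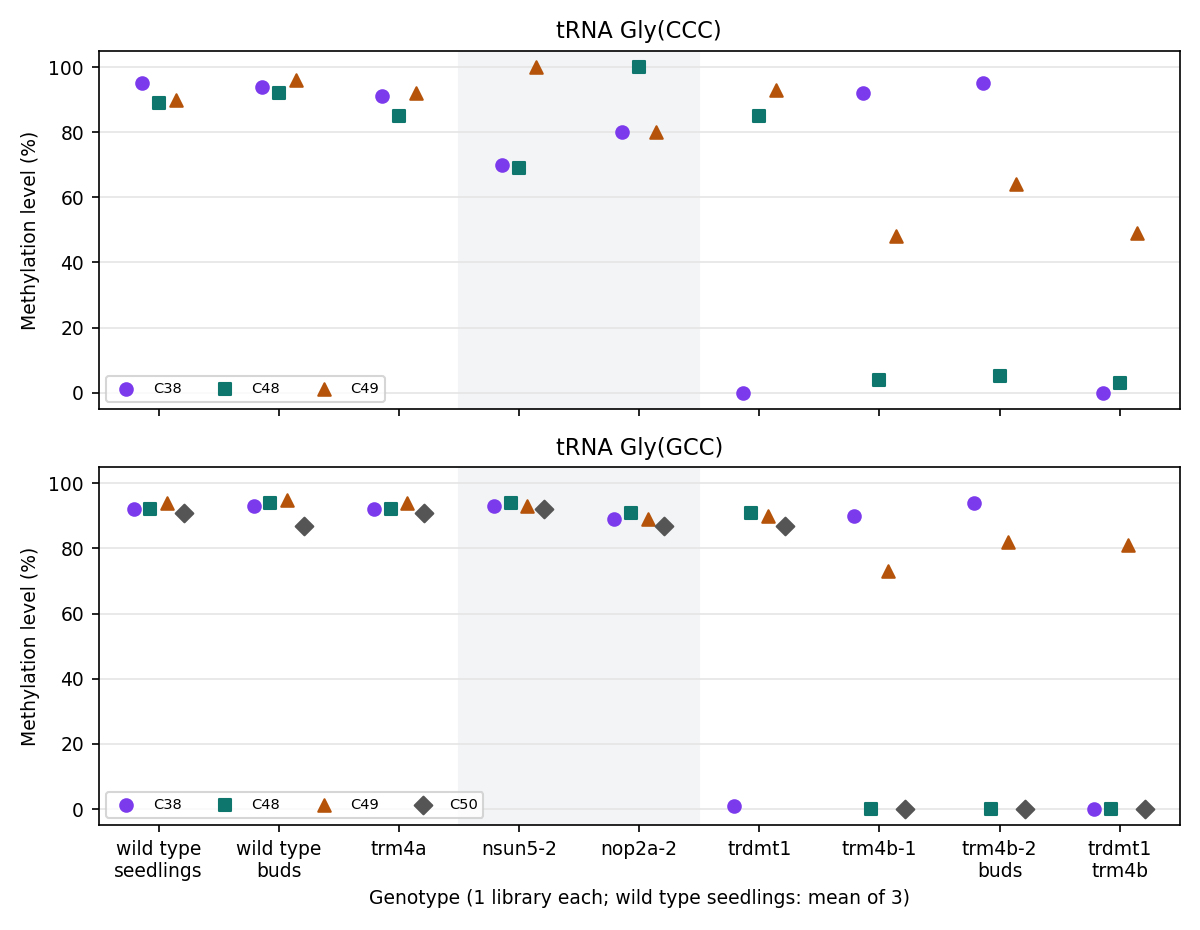
Methylation level in percent (y axis) at the sites of tRNA Gly(CCC), upper panel, and tRNA Gly(GCC), lower panel, in each of the 9 columns (x axis). Every point is 1 library, except wild type seedlings, which are a mean of 3, and the shaded band marks *nsun5-2* and *nop2a-2*. In the band, Gly(CCC) ranges from 69% to 100%, whereas Gly(GCC) stays between 87% and 94%.

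Other differences of 10 points or more lay in single-site tRNAs and in Gln(CTG). Arg(ACG) C49 was at 78% in wild type, 67% in *nsun5-2* and 100% in *nop2a-2*, so that the mutants lay on opposite sides of wild type, at -11 and 22 points. Val(CAC) C49 was at 61% in wild type and 83% in *nsun5-2*, a difference of 22 points, and had no value in *nop2a-2*. Lys(CTT) C48 was at 88% in wild type, 95% in *nsun5-2* and 100% in *nop2a-2*, higher in both by 7 and 12 points. Mutants of other enzymes were set beside these. Arg(ACG) C49 was at 92% in *trm4a* and 69% in *trdmt1*, and Val(CAC) C49 at 40% and 43%. The former pair thus differed from wild type there too, whereas Lys(CTT) C48 was close to it, at 89% in *trm4a* and 90% in *trdmt1*.

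Gln(CTG), a glutamine tRNA with adjoining sites, was measured in *nop2a-2* and not in *nsun5-2*. C49 was at 98% in wild type and 80% in *nop2a-2*, a difference of -18 points and the lowest of that library. C48 was at 86% in wild type and 80% in *nop2a-2*. The same C49 was at 71% in *trdmt1* and 100% in *trm4a*. Thr(TGT) C49, one of the lowest sites in wild type at 31%, was at 40% in *nsun5-2* and had no value in *nop2a-2*, while *trm4a* and *trdmt1* were both at 60%.

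**Figure D3:**
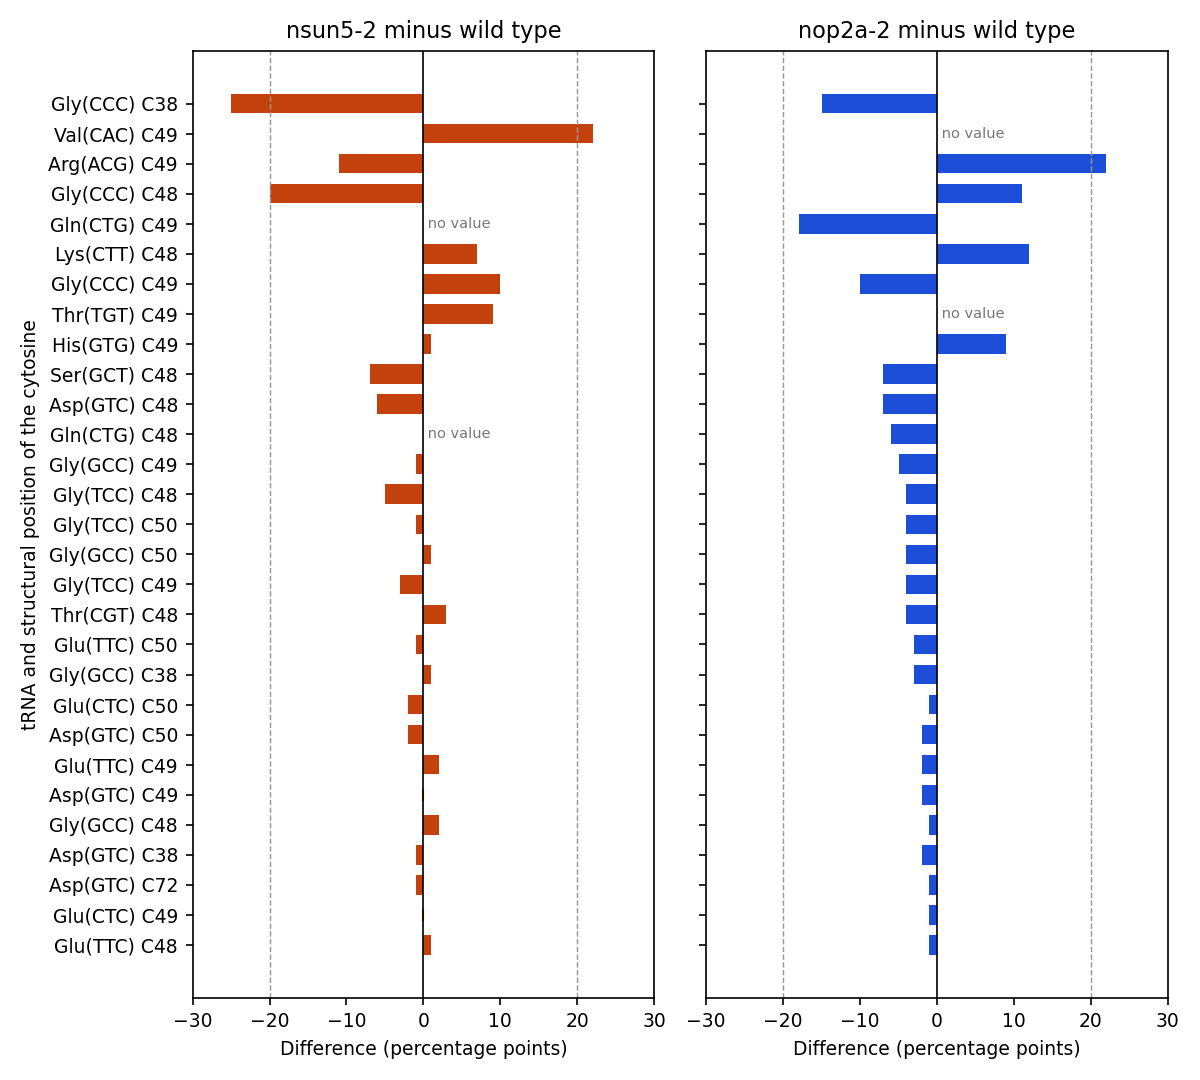
Difference from the wild type mean in percentage points (x axis) for *nsun5-2*, left, and *nop2a-2*, right, at the 29 sites of the y axis, ordered by the larger absolute difference of the 2 mutants. Dashed lines mark 20 points in either direction, and grey text marks a site without a value. The Gly(CCC) C48 and C49 bars and the Arg(ACG) C49 bars point in opposite directions in the 2 panels.

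Asp(GTC), the tRNA through which TRDMT1 is best known, stayed near wild type in both mutants. C38 was at 95% in wild type, 94% in *nsun5-2* and 93% in *nop2a-2*. C72, in the acceptor stem, was at 95% in wild type and 94% in each mutant. C49 was at 97%, 97% and 95% and C50 at 96%, 94% and 94% in wild type, *nsun5-2* and *nop2a-2*. The largest difference within this tRNA was at C48, the partly methylated site, which was at 69% in wild type, 63% in *nsun5-2* and 62% in *nop2a-2*. Both values were below the 69% to 74% spanned by wild type seedlings, *trm4a*, *trdmt1* and wild type buds, by 6 and 7 points. Over the 25 sites measured in both mutants, 4 in *nsun5-2* and 7 in *nop2a-2* lay 5 points or more outside such a range.

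The C50 sites, which lie in the T stem of 5 tRNAs and depend on TRM4B, were all retained. They were at 91% to 96% in wild type, 91% to 94% in *nsun5-2* and 87% to 94% in *nop2a-2*. In *nsun5-2* the differences were 1 point at Gly(GCC), -1 point at Glu(TTC) and Gly(TCC), and -2 points at Asp(GTC) and Glu(CTC). In *nop2a-2* they were -1 point at Glu(CTC), -2 points at Asp(GTC), -3 points at Glu(TTC), and -4 points at Gly(TCC) and Gly(GCC). In *trm4b-1* the same 5 cytosines were at 0% or 1%. By position, the median differences in *nsun5-2* were -1 point at C38, -2 points at C48 and 0.5 points at C49. Those in *nop2a-2* were -3 points at C38, -4 points at C48 and -2 points at C49.

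The glutamate tRNAs were among the closest to wild type. Their 5 sites differed from wild type by -2 to 2 points in *nsun5-2* and by -3 to -1 points in *nop2a-2*. They include the lowest level of the wild type profile, Glu(TTC) C48, which was at 23% in wild type, 24% in *nsun5-2* and 22% in *nop2a-2*. A low level was therefore kept as closely as the high ones at C49 and C50 of the same tRNA. C49 was at 94% in wild type, 96% in *nsun5-2* and 92% in *nop2a-2*.

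In *nop2a-2*, levels slightly below wild type recurred across most tRNAs with several sites. A list of 17 sites, those of Gly(GCC), Gly(TCC), Asp(GTC) and both glutamate tRNAs, was chosen after the values were seen. It leaves out Gly(CCC) and Gln(CTG). On it *nop2a-2* was below wild type at 17, by -7 to -1 points with a median of -2 points. Over all its 27 sites it was below at 85.2%. With Gly(CCC) and Gln(CTG) included it was below at 21 of 22 sites and above at 1, by 11 points. At its 5 sites in single-site tRNAs, *nop2a-2* was below at 2 and above at 3, with a median of 9 points. *nsun5-2* was below at 10 and above at 5 of the 17 sites, from -6 to 2 points with a median of -1 point. Over all its 27 sites *nsun5-2* was below at 51.9%. The same 17 sites in *trm4a* were below wild type at 10, above at 1 and equal at 6, where 56.7% of all 30 sites of *trm4a* were below. *trdmt1* was below at 12 and above at 2 of them, its C38 sites included, and wild type buds were below at 4 and above at 8. Over all sites compared, *trdmt1* was below at 18 of 30 and wild type buds at 10 of 39. These comparisons share the wild type column. Set directly against each other, the mutants differed by -5 to 1 points at these sites (*nop2a-2* minus *nsun5-2*), with *nop2a-2* the lower at 13.

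The direct difference of the mutants does not use the wild type. Over 25 sites *nop2a-2* was below *nsun5-2* at 15, above at 7 and equal at 3, with a median of -1 point and a median absolute difference of 3 points. At 3 sites (12%) they were 20 points or more apart. These were Arg(ACG) C49 at 33 points, Gly(CCC) C48 at 31 points and Gly(CCC) C49 at -20 points. A further site, Gly(CCC) C38, was 10 points higher in *nop2a-2*, which makes 16% of sites at 10 points or more. The sites that differed from wild type by 10 points or more in both mutants were the 3 of Gly(CCC) and Arg(ACG) C49, and only at Gly(CCC) C38 did both lie on the same side of wild type.

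The spread of the mutants was set beside that of other single libraries at the 22 sites outside C38 with a value in every column. The mean absolute difference from wild type seedlings was 3.95 points in *nsun5-2* and 5.32 points in *nop2a-2*, against 2.55 points in *trm4a*, 2.68 points in *trdmt1* and 2.36 points in wild type buds. Differences of 10 points or more numbered 3 in *nsun5-2*, 4 in *nop2a-2*, 1 in *trm4a*, 1 in *trdmt1* and 0 in buds. With the sites that lack a value in some column included, this order did not hold. Outside C38 such differences then numbered 4 of 24 sites in *nsun5-2*, 5 of 24 in *nop2a-2*, 5 of 27 in *trm4a*, 5 of 27 in *trdmt1* and 7 of 36 in buds. The mean absolute difference there was 4.92 points in *nsun5-2*, 5.88 in *nop2a-2*, 4.96 in *trm4a*, 6.19 in *trdmt1* and 5.97 in buds. *nsun5-2* was thus the lowest of the 5, but over unlike sets of sites. Sites with a value in the library itself but not in every column numbered 2 for *nsun5-2*, 2 for *nop2a-2*, 5 for *trm4a*, 5 for *trdmt1* and 14 for buds. Over all sites compared, C38 included, 16.7% differed by 10 points or more in *trm4a*, 26.7% in *trdmt1* and 17.9% in buds. At the 22 sites the median absolute differences were 2 points in *nsun5-2*, 4 in *nop2a-2*, 1.5 in *trm4a*, 2 in *trdmt1* and 1.5 in buds.

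**Figure D4:**
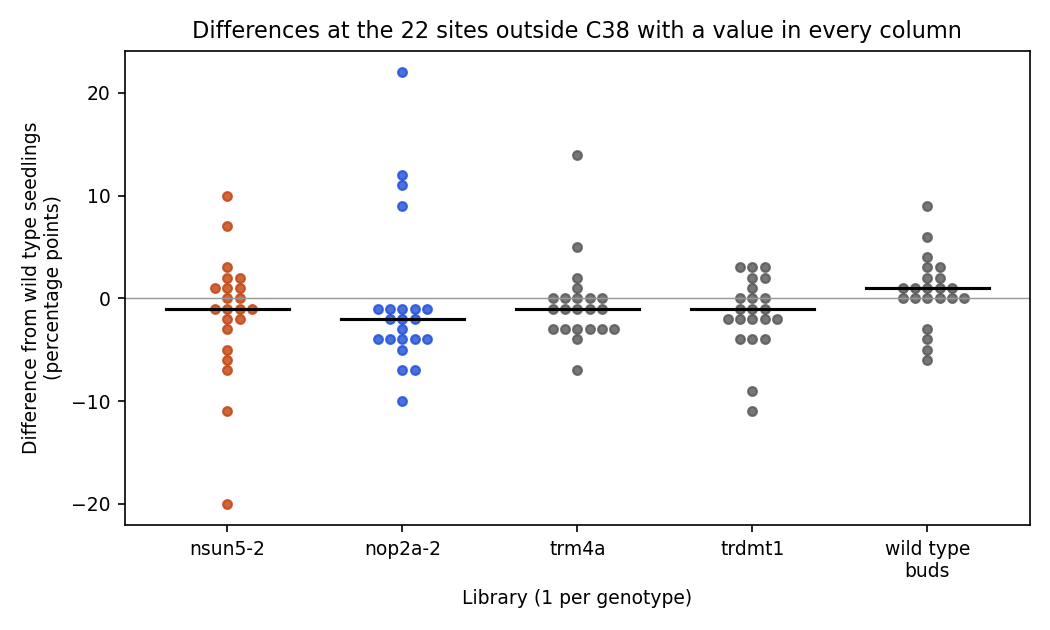
Difference from the wild type seedling mean in percentage points (y axis) at the 22 sites outside C38 with a value in every column, for 5 libraries (x axis). Each point is a site and each black line a median over sites. The lowest point is -20 in *nsun5-2* and the highest is 22 in *nop2a-2*, and the medians lie between -2 and 1.

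The large differences of *nop2a-2* coincided with particular levels. Of its 27 sites, 8 were at exactly 80% or 100%. These were Lys(CTT) C48, Arg(ACG) C49, His(GTG) C49, both sites of Gln(CTG) and the 3 sites of Gly(CCC). His(GTG) C49 was at 91% in wild type, 92% in *nsun5-2* and 100% in *nop2a-2*. The 8 sites differed from wild type by at least 6 points, whereas the other 19 sites of *nop2a-2* differed by at most 7 points. This grouping was made after the values were seen and uses the *nop2a-2* levels themselves. Wild type was at 78% to 98% at the 8 sites, so a distance from it is partly built into the choice. Levels of exactly 80% or 100% were found at 1 of 27 sites in *nsun5-2* (Gly(CCC) C49), at 3 of 30 in *trm4a* and at 2 of 30 in *trdmt1*. The part of read depth in this was not tested, since the tables hold none.

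Sites without a value were the same for the most part in both libraries. Each mutant lacked 12 of the 39 sites, of which 10 were missing in both. These were the C48 sites of Arg(TCG), Gln(TTG), Ile(AAT), Leu(TAA), Lys(TTT), Ser(CGA) and Ser(TGA) and the C49 sites of Ala(AGC), Ala(CGC) and Ala(TGC). All 10 belong to tRNAs with a single site, and 8 of them also had no value in both *trm4a* and *trdmt1*. In wild type they were at 33% (Ile(AAT) C48) to 100% (Ser(TGA) C48), with a median of 76%, against a median of 92% for the 25 sites measured in both mutants. *nsun5-2* further lacked both sites of Gln(CTG), and *nop2a-2* the C49 sites of Thr(TGT) and Val(CAC). A change could not have been seen in a library without a value, and Val(CAC), Thr(TGT) and Gln(CTG) could not be compared between the mutants.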

How the data were processed

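By the study's methods, the authors gel-purified tRNA, converted it with bisulfite beside an unmethylated control transcript (at least 98% conversion required), and aligned reads in CLC Genomics Workbench, of a version not given in the sources used here, against C-to-T converted consensus tRNAs from TAIR10. The deposited values are percent methylation in whole percents, the share of C among C and T reads. A value needed at least 5 reads, and cells marked N.D. were treated as missing. A consensus merges its loci, and other bisulfite-resistant cytosines would read as m5C. Columns were assigned by genotype name, with 0 left over. All 39 sites fell on a C of their consensus, and RefSeq (TAIR10.1, names and types only) listed all 257 loci. Differences, counts and medians were computed in Python 3.11.15 with numpy 2.4.6 and drawn with matplotlib 3.10.9. The call rule was run on simulated sites of high depth and with falls far beyond its limit. That check says nothing about calls near the limit or at the unknown depth of these sites. No p-value, interval or detection limit was computed. Named sites were those 10 points or more from wild type or between mutants, all sites of Gly(CCC), Asp(GTC), C38, C50 and C72, those without a value, and the 3 lowest in wild type. Other examples were chosen after their values were seen. The members, lists and thresholds were chosen with earlier results of these data known.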

Additional observations from a re-analysis of the deposited data

How the results depend on the processing

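Of 33 alternatives listed at the outset, 22 left their count or median within 1.5 times its value and 11 did not, and of 18 added after seeing the data 11 did and 7 did not. The 2 reduced sites of *nsun5-2* became 0 with a fall of 30 points, 0 with a ratio below 0.5 and 0 without Gly(CCC). Against the median of the other mutants the count stayed at 2 but held Arg(ACG) C49 and Thr(TGT) C49. The single site of *nsun5-2* higher by 20 points became 2 with a rise of 10 points, and 0 with a rise of 30 points, at fully measured sites or against wild type buds. The count of 0 reduced sites in *nop2a-2* became 3 with a fall of 10 points (Gln(CTG) C49, Gly(CCC) C38 and C49) and 2 against *trm4a* (both sites of Gln(CTG)). Its single higher site became 3 with a rise of 10 points, and 0 with a rise of 30 points, against *trm4a* or against buds. Its median absolute difference of 4 points was 2 against the median of *trm4a*, *trdmt1* outside C38 and *nsun5-2*, and 2 against *trm4a*. With means in place of medians, the absolute difference was 5.37 points instead of 2 in *nsun5-2* and 5.96 points instead of 3 between the mutants. The 3 sites where the mutants were 20 points apart became 1 without Gly(CCC), Arg(ACG) C49. No paired analysis was possible because each mutant had 1 library and the wild type was deposited as a mean, so no replicate could be left out either. Depth was unknown and limits every difference reported.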

Other observations

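The tRNAs measured in both mutants stood for more loci than those measured in neither, with a median of 11 loci (5 to 25) over 11 tRNAs against 7 loci (4 to 17) over 10. Among the former, the 3 tRNAs with a site 10 points or more from wild type in either mutant stood for 5 to 17 loci with a median of 9, and the other 8 for 5 to 25 with a median of 11.5, so the ranges overlap. Among *trm4a*, *trdmt1* (left out at C38, the site of the enzyme it lacks), *nsun5-2* and *nop2a-2*, the lowest value of a site belonged to *nop2a-2* alone at 10 of 25 sites, to *nsun5-2* alone at 4, to *trm4a* alone at 3 and to *trdmt1* alone at 1. These comparisons were chosen after the values were seen.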
